A study of Mus musculus with 6 samples.

Results

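Hepatokines are proteins that the liver secretes, mostly from its hepatocytes, to act on other tissues. The 9 genes described here encode 7 such factors (*Fgf21*, *Angptl4*, *Angptl6*, *Angptl8*, *Gdf15*, *Lect2* and *Inhbe*) and 2 receptor components. These are the co-receptor of FGF21 and its relatives (*Klb*) and the main FGF receptor of hepatocytes (*Fgfr4*). The 9 genes were chosen by symbol, with earlier results of these data known. Each symbol matched 1 Ensembl gene, so the set is 9 of the 55487 gene rows, and all 9 passed the filter on low counts. RNA was sequenced from hepatocytes of WT mice and of mice homozygous for AEG-1-C75S, aged 6 to 8 weeks, 48 h after the cells were isolated, with 3 libraries in each group. AEG-1, encoded by *Mtdh*, sits in membranes of the endoplasmic reticulum, and in C75S a cysteine that can carry the lipid palmitate is changed to serine. Both groups came from matings of heterozygotes and carry the treatment label Control. The strain is not given in the sources used here, and nothing there says whether the libraries of a group came from separate mice, so the p-values measure the spread between these libraries, which may be technical.

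FGF21 is released by the stressed or fasted liver. It acts through an FGF receptor bound to beta-Klotho, the co-receptor encoded by *Klb*. FGFR4, the main FGF receptor of hepatocytes, pairs with the same co-receptor to receive the gut hormone FGF15, which represses bile acid synthesis. ANGPTL4 and ANGPTL8 control lipoprotein lipase, the enzyme that frees fatty acids from circulating triglyceride. GDF15 is a stress-induced hormone that lowers appetite through the brain receptor GFRAL, LECT2 is a secreted chemotactic factor, and *Inhbe* encodes the subunit of activin E. *Fgf21*, *Gdf15* and *Inhbe* are known targets of the transcription factor ATF4, and *Fgf21* and *Angptl4* are known targets of the fatty acid receptor PPAR-alpha.

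In C75S hepatocytes 3 of the 9 transcripts, *Fgf21*, *Angptl4* and *Gdf15*, were lower than in WT, and 0 were higher. *Fgf21* fell by 0.96 on the log2 scale and the other two by 0.21 and 0.22. The remaining 6 genes, both receptor components among them, did not pass the test. A gene was called when its Benjamini-Hochberg adjusted p-value over all 12741 tested genes was under 0.05 in edgeR's quasi-likelihood test. Of all tested genes 3.11% were called by this rule, 1.37% were called as lower in C75S and 1.74% as higher. Since the 9 genes were chosen with earlier results known, these shares are given as description. All 3 calls depended on WT replicate 1, the library in which each of these transcripts was highest: without it 0 of the 9 genes were called. In that fit *Fgf21* was at -0.83 on the log2 scale (edgeR adjusted p = 0.0541). Over all tested genes the same fit called 363, against 396 with every library kept. Omitting C75S replicate 1 left only *Fgf21* called, and omitting C75S replicate 3 only *Gdf15*. WT replicate 1 also had the fewest detected genes of the 6 libraries, 17412 against 18125 to 18575 in the others, and the part of this in the result was not tested.

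The upstream sequence of some of the 9 genes is given first, so that the values can be set beside the motifs known for their regulators. RefSeq's promoter table (GRCm38.p6) held 8 of the 9 genes in 9 windows, since *Gdf15* has 2 starts; *Angptl4* was not among them. Shown are the 250 bases before the start of *Fgf21*, of *Gdf15* at its upstream start, and of *Angptl8*, a gene that did not pass the test but holds the same motif as *Fgf21*. Each runs 5′ to 3′ on the gene's own strand and contains no annotated exon of GENCODE M21. Capitals mark every match to 4 motifs, searched on both strands: the C/EBP-ATF response element TGATGNAAN bound by ATF4 with its partners, the E-box CACGTG, the direct repeat of AGGNCA spaced by 1 base, bound by PPAR-alpha and other nuclear receptors, and the TATA box TATAAA. The capitals of these motifs do not overlap in the windows printed.
*Fgf21*, chr7:45615491-45615740, minus strand: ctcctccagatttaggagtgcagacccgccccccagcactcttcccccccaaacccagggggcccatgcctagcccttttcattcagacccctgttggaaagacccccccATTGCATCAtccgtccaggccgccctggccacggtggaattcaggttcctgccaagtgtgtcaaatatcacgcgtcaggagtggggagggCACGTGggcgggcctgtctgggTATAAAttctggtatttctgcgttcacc
*Gdf15*, chr8:70632457-70632706, minus strand: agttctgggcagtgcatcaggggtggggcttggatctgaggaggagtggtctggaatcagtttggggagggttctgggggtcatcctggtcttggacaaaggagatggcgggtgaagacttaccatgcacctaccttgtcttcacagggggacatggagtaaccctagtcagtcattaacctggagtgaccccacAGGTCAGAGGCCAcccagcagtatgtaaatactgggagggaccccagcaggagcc
*Angptl8*, chr9:21835260-21835509, plus strand: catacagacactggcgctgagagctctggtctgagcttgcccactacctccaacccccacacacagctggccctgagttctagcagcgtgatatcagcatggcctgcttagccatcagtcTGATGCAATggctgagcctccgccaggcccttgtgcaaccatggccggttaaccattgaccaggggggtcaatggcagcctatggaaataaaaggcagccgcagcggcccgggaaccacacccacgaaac

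In *Fgf21* the C/EBP-ATF element lies on the opposite strand and begins 140 bases upstream of the start, where it reads TGATGCAAT on its own strand. The same letters occur in *Angptl8*, on the gene's strand and 130 bases upstream. A further match, TGATGCAAG on the opposite strand, lies 182 bases upstream of *Inhbe*, in a window that is not printed because it overlaps an exon of the gene. Of all 32851 windows of 250 bases in the table, 3.44% held this element, against 3 of the 9 member windows. *Fgf21* also held an E-box at 50 bases and a TATA box at 28 bases upstream. An E-box was found in 6.02% of all windows and in 2 member windows, those of *Fgf21* and of the second start of *Gdf15*. The TATA box was found in 12.4% of all windows and in 1 member window. The direct repeat was found in 0.338% of all windows and, among the members, in the printed *Gdf15* window, 55 bases upstream. Of the 3 genes with a C/EBP-ATF element, *Fgf21* fell, and *Angptl8* and *Inhbe* did not pass the test. A match says only that these letters are present.

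*Fgf21* (ENSMUSG00000030827, chromosome 7, 45613886 to 45615490, minus strand, GRCm38) was a rare transcript. The WT libraries held 5.18, 3.70 and 4.42 CPM (counts per 1000000 counts on genes, scaled by TMM) and the C75S libraries 2.53, 2.37 and 1.93 CPM. Every C75S library lay below every WT library, and the lowest WT library was above the highest C75S library by more than the SD of the C75S group. These levels rest on 109, 76 and 91 counts in WT and 44, 50 and 36 in C75S. The mean was 4.43 ± 0.74 CPM in WT and 2.27 ± 0.31 CPM in C75S (SD, n = 3 each), which is 1.95-fold lower. On the log2 scale the difference was -0.96 with an SE of 0.22, and edgeR's adjusted p-value was 0.0122. The adjusted p-value was 0.0541 without WT replicate 1 and 0.0532 without C75S replicate 3, at -0.83 and -0.86 on the log2 scale. No read of the opposite strand was counted to *Fgf21* in any library. In bulk RNA, fewer cells that express a gene and less of its RNA per cell cannot be told apart.

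*Klb* (ENSMUSG00000029195, chromosome 5, 65348314 to 65384007, plus strand), the co-receptor, was measured at 2.18, 2.92 and 2.09 CPM in WT and at 1.95, 2.75 and 2.68 CPM in C75S. The groups overlapped almost completely, with the highest value in a WT library and the lowest in a C75S library. C75S minus WT on the log2 scale was 0.04 with an SE of 0.25 (edgeR adjusted p = 0.969). Its sign changed in 4 of 6 leave-one-out fits. At 34 to 60 counts per library, 2 SE on either side of the estimate reached from -0.45 to 0.54. The estimate of *Fgf21* lies outside this range. The range is not a limit of detection: changes within it, and some beyond it, could go uncalled at this depth. *Inhbb*, at 0.78 with an SE of 0.28, did not pass (edgeR adjusted p = 0.173).

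*Fgfr4* (ENSMUSG00000005320, chromosome 13, 55152640 to 55168759, plus strand) was measured at 45.5, 40.6 and 35.7 CPM in WT and at 39.8, 43.4 and 42.1 CPM in C75S. All 3 C75S libraries lay inside the WT range. C75S minus WT on the log2 scale was 0.04 with an SE of 0.08 (edgeR adjusted p = 0.885), with 2 SE reaching from -0.11 to 0.20. Among the 4 FGF receptor genes, *Fgfr4* had the highest level per length in both genotypes. In WT it was at 11.5 ± 1.39 RPKM (CPM per kilobase of the gene's merged exons), *Fgfr3* at 2.60 ± 0.27, *Fgfr1* at 1.12 ± 0.03 and *Fgfr2* at 0.229 ± 0.027 RPKM (SD, n = 3 each). *Fgfr1* was at 11.1 ± 0.31 CPM in WT and 13.4 ± 1.21 CPM in C75S, without overlap, and did not pass (edgeR adjusted p = 0.227). *Klb* stood at 0.527 ± 0.101 RPKM, below *Fgfr4* in every library of both genotypes.

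**Figure D1:**
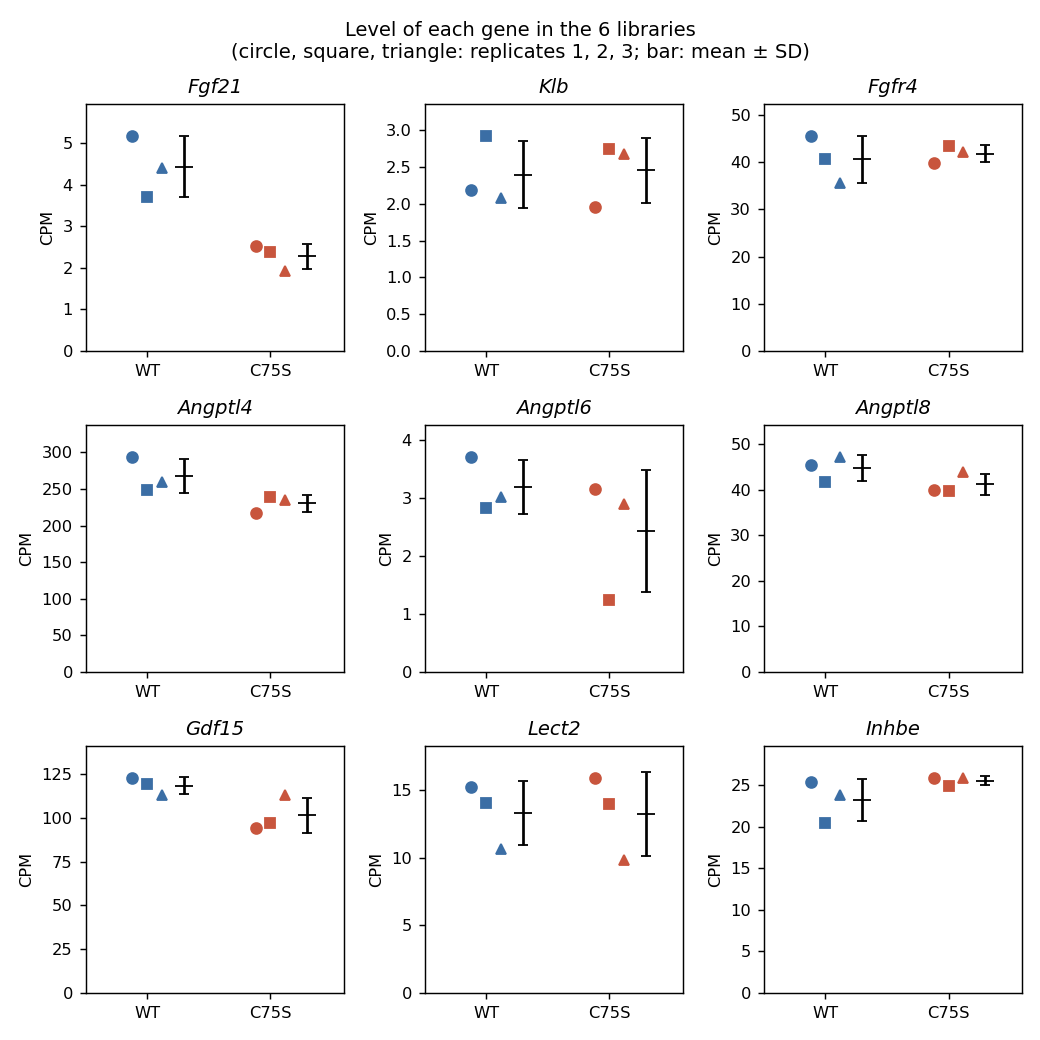
Level of each of the 9 genes (CPM, y axis from 0) in the 3 WT and 3 C75S libraries; each point is a library, its shape the replicate number, and the bar the mean ± SD. For *Fgf21*, *Angptl4* and *Gdf15* the C75S points lie below all WT points, with the nearest pair of *Gdf15* almost level, while the other 6 genes overlap.

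*Angptl4* (ENSMUSG00000002289, chromosome 17, 33773750 to 33781830, minus strand) inhibits lipoprotein lipase and was the most abundant of the 9 genes. It was measured at 294, 249 and 259 CPM in WT and at 217, 239 and 235 CPM in C75S. Every C75S library was below every WT library, but the gap between the nearest libraries was smaller than the SD of either group. The mean fell from 268 ± 23.4 to 231 ± 11.7 CPM (SD, n = 3 each). This is a difference of -0.21 on the log2 scale with an SE of 0.06, and edgeR's adjusted p-value was 0.042, close to the threshold. Among C75S libraries, omitting replicate 1 or 3 ended the call (edgeR adjusted p = 0.199 and 0.068), as did omitting WT replicate 1 or 3 (0.216 and 0.068). Library-size scaling gave 0.0511. Without WT replicate 1 the log2 fold change was -0.14.

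*Angptl8* (ENSMUSG00000047822, chromosome 9, 21835510 to 21837347, plus strand) encodes a feeding-induced partner of ANGPTL4. It was measured at 45.4, 41.8 and 47.2 CPM in WT and at 40.02, 39.7 and 43.9 CPM in C75S. C75S replicate 3 exceeded the lowest WT library, so the groups overlapped. C75S minus WT on the log2 scale was -0.12 with an SE of 0.07 (edgeR adjusted p = 0.483), and 2 SE reached from -0.26 to 0.02. The gene lies inside *Dock6*, which is on the other strand.

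*Angptl6* (ENSMUSG00000038742, chromosome 9, 20873808 to 20879727, minus strand), a secreted factor also called angiopoietin-related growth factor, was measured at 3.70, 2.83 and 3.01 CPM in WT and at 3.16, 1.23 and 2.89 CPM in C75S. A single library, C75S replicate 2, was low, and the other C75S libraries lay within the WT range. On the log2 scale C75S minus WT was -0.41 with an SE of 0.27 (edgeR adjusted p = 0.565). Without C75S replicate 2 it was -0.07. *Angptl6* shares 265 exonic bases with *A230050P20Rik* on the opposite strand, and reads of that strand amounted to 374% of its own counts, so its value rests on the strand-specific counting.

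*Gdf15* (ENSMUSG00000038508, chromosome 8, 70629393 to 70632456, minus strand) was measured at 123, 119 and 113 CPM in WT and at 94.5, 97.0 and 113 CPM in C75S. C75S replicate 3 (113.04 CPM) and WT replicate 3 (113.09 CPM) were practically level, so the separation of the groups rests on the other libraries. The mean fell from 118 ± 5.02 to 102 ± 10.1 CPM (SD, n = 3 each). This is a difference of -0.22 on the log2 scale with an SE of 0.06, and edgeR's adjusted p-value was 0.0438. DESeq2 gave the same log2 fold change with an adjusted p-value of 0.0639. Omitting C75S replicate 1 or 2 also ended the call (edgeR adjusted p = 0.225 and 0.194), as did omitting WT replicate 1 or 2 (0.161 and 0.163). Without C75S replicate 3 the log2 fold change was -0.31 and the edgeR adjusted p-value 0.0038.

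*Inhbe* (ENSMUSG00000047492, chromosome 10, 127348857 to 127354411, minus strand) was measured at 25.4, 20.5 and 23.9 CPM in WT and at 25.9, 25.0 and 25.8 CPM in C75S. Of the 3 C75S libraries 2 were above all WT libraries, and C75S replicate 2 fell inside the WT range. On the log2 scale C75S minus WT was 0.14 with an SE of 0.09 (edgeR adjusted p = 0.541), with 2 SE reaching from -0.04 to 0.31. *Fgf21* and *Gdf15*, the other two ATF4 targets of the set, had estimates of the opposite sign, and the difference between the genes was not tested.

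*Lect2* (ENSMUSG00000021539, chromosome 13, 56542464 to 56548502, minus strand) was measured at 15.2, 14.0 and 10.6 CPM in WT and at 15.9, 13.9 and 9.79 CPM in C75S. The ranges of the genotypes overlapped almost wholly. On the log2 scale C75S minus WT was -0.01 with an SE of 0.17 (edgeR adjusted p = 0.984), and 2 SE reached from -0.35 to 0.32. Its spread, 18.0% of the mean in WT and 23.6% in C75S, was larger than that of *Angptl8* (6.18% and 5.62%).

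**Figure D2:**
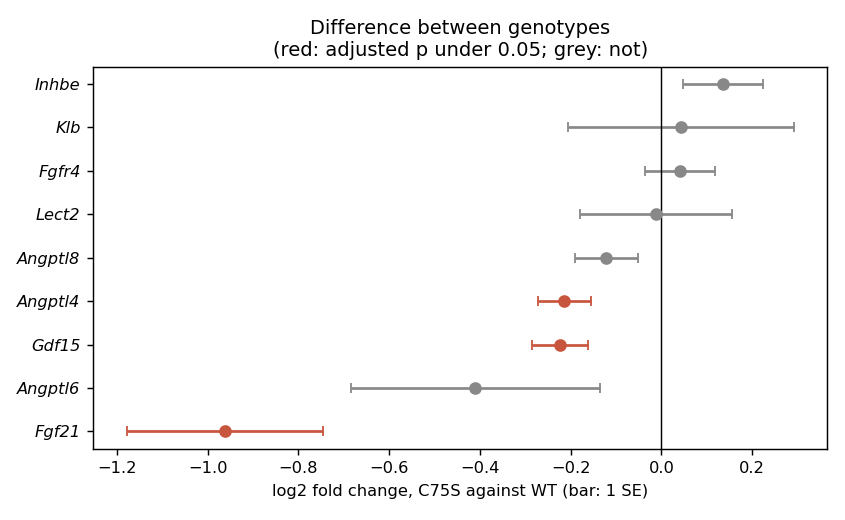
Log2 fold change of C75S against WT for the 9 genes (x axis), with bars of 1 SE; red marks an edgeR adjusted p-value under 0.05. *Fgf21* at -0.96 stands apart from *Gdf15* (-0.22) and *Angptl4* (-0.21), and the other 6 lie between -0.41 and 0.14.

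For the 9 genes the median log2 fold change was -0.12, with 6 estimates below 0 and 3 above, against a median of -0.003 over all tested genes. Of all tested genes, 6482 had estimates below 0 and 6259 above. The groups did not overlap in 3 of the 9 genes, all lower in C75S, and in 18.0% of all tested genes, 8.96% as lower in C75S. These shares, too, are description only. Per length, the order in WT ran from *Angptl4* (75.5 ± 6.61 RPKM) through *Gdf15* (64.0 ± 2.71), *Angptl8* (51.8 ± 3.20), *Lect2* (14.5 ± 2.60), *Fgfr4*, *Fgf21* (4.66 ± 0.77), *Inhbe* (4.37 ± 0.47) and *Angptl6* (2.01 ± 0.29) to *Klb*. Neighbours whose libraries overlapped were *Lect2* with *Fgfr4* and *Fgf21* with *Inhbe*. In C75S the order was the same except that *Fgf21*, at 2.39 ± 0.33 RPKM, stood below *Inhbe*, at 4.81 ± 0.10 RPKM, without overlap between libraries. The level per length depends on the exon length taken: that of *Inhbe*, 5.319 kb, is the longest of the 9 and that of *Angptl8*, 0.865 kb, the shortest.

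**Figure D3:**
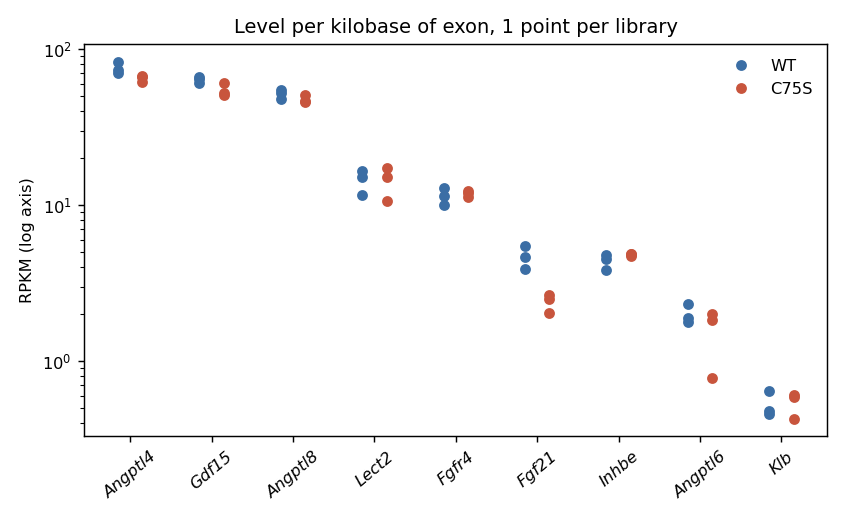
Level per kilobase of merged exons (RPKM, log axis) of the 9 genes, ordered by their mean in WT, with 1 point per library. The 9 genes span from 0.429 RPKM (*Klb*, a C75S library) to 83.0 RPKM (*Angptl4*, a WT library), and the WT and C75S points of *Fgf21* are the pair set farthest apart.

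The remaining genes of these pathways were taken from 8 lists, 153 genes in all, of which 137 could be tested and 18 were called (8 higher, 10 lower), which is 13.1% against 3.11% of all tested genes. The lists were chosen with earlier results of these libraries known, so they are given as description. Among FGF ligands, receptors and signalling genes, 3 of 21 tested were called, 1 up and 2 down, and the list's median was -0.03 on the log2 scale. *Fgf1*, a growth factor that binds all FGF receptors, fell from 128 ± 10.4 to 97.5 ± 2.53 CPM (edgeR adjusted p = 0.000137). *Sdc4*, the heparan sulphate proteoglycan syndecan-4, fell from 183 ± 0.84 to 160 ± 8.55 CPM (edgeR adjusted p = 0.034), a call that ended when any library except C75S replicate 3 was omitted. *Fgfr2* rose from 2.36 ± 0.28 to 4.54 ± 0.28 CPM, or by 0.94 on the log2 scale with an SE of 0.21 (edgeR adjusted p = 0.00918). The call of *Fgfr2* was lost without WT replicate 3 (0.0505), and without that library 1 gene of this list was called. The tested feedback inhibitors and target genes of FGF signalling (*Spry1*, *Spry4*, *Spred1*, *Spred2*, *Dusp6*, *Etv4* and *Etv5*) did not pass: *Dusp6* was at 32.4 ± 2.23 CPM in WT and 33.3 ± 1.24 in C75S, and *Spry4* at 2.10 ± 1.02 and 2.31 ± 0.25 CPM. *Fgf15*, the gut ligand of FGFR4 and KLB, was at 0 counts in all 6 libraries, which allows up to 0.143 to 0.177 CPM (3 counts, counting error only).

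Among the remaining ANGPTL genes and genes of lipoprotein lipase handling, 2 of 9 tested were called, both lower, with a median of -0.17. *Lipc*, the hepatic lipase, fell from 106 ± 4.71 to 85.2 ± 4.26 CPM (edgeR adjusted p = 0.000997). *Angptl2* fell from 17.3 ± 2.77 to 12.8 ± 1.91 CPM (edgeR adjusted p = 0.0484), a call that 8 of 14 alternatives lost. Omitting WT replicate 2, or C75S replicate 1 or 2, left 1 gene of this list called. *Lpl* itself was rare, at 0.768 ± 0.423 CPM in WT and 0.485 ± 0.150 CPM in C75S.

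Of the activin, GDF15 and LECT2 ligands, receptors and inhibitors, 1 of 15 tested was called. That gene was *Fst*, which encodes the activin-binding protein follistatin. It rose from 48.8 ± 1.86 to 63.4 ± 2.22 CPM, or by 0.38 on the log2 scale with an SE of 0.06 (edgeR adjusted p = 0.000334). The other tested activin subunit genes did not pass. *Inhbb* was at 1.57, 1.36 and 1.26 CPM in WT and at 2.81, 2.51 and 1.87 CPM in C75S, without overlap, a difference of 0.78 on the log2 scale with an SE of 0.28 (edgeR adjusted p = 0.173, unadjusted p = 0.0116). *Inhba* was at 118 ± 7.06 CPM in WT and 114 ± 3.07 in C75S, and *Inhbc* at 9.94 ± 1.44 and 10.5 ± 1.21 CPM. *Gfral*, the GDF15 receptor, had 0 counts in all libraries, and *Acvr1c*, a receptor of activin E, had 1 count in all.

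Other hepatokines held 7 called genes of 19 tested, 5 higher and 2 lower, with a median of 0.07. The list's largest change was that of *Igfbp2*, an insulin-like growth factor binding protein, from 24.8 ± 1.45 to 84.3 ± 6.56 CPM, which is 1.76 on the log2 scale with an SE of 0.07 (edgeR adjusted p = 5.48e-15). *Fetub*, the liver-secreted fetuin-B, rose from 83.9 ± 2.64 to 108 ± 10.3 CPM (edgeR adjusted p = 0.000552). *Fgl1*, also called hepassocin, rose from 164 ± 9.21 to 208 ± 16.8 CPM (edgeR adjusted p = 0.000858). The other called genes of the list were *Gpnmb* and *Lcn2*, which rose by 0.30 and 0.24 on the log2 scale, and *Serpina12* and *Ahsg*, which fell by 0.59 and 0.22. The count of this list was 3 without WT replicate 1 and 4 without WT replicate 2 or WT replicate 3.

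The transcripts of regulators known for the members, and of genes in their pathways, were read in the same fit. The protein levels and activity of these regulators were not measured. Of 22 ATF4 and integrated stress response genes 0 were called by edgeR, and the median log2 fold change was 0.01. Before adjustment, p was under 0.05 for 4 of the 22, against 13.4% of all tested genes. *Atf4* was at 340 ± 27.3 CPM in WT and 331 ± 9.53 in C75S. The lowest p-value of this list was that of *Ddit4*, at 76.4 ± 4.31 and 66.4 ± 2.45 CPM (edgeR adjusted p = 0.0563). With no filter on low counts 2 genes of the list were called, and without C75S replicate 2 or WT replicate 1 it was 1 gene. DESeq2 called 0 of the 22 and limma-voom 0.

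Of PPAR-alpha and its targets, 2 of 21 were called, both lower, with a median of -0.08 and 15 estimates below 0. Over all tested genes, 6482 of 12741 estimates were below 0. *Cidec*, a lipid droplet protein, fell from 31.9 ± 1.51 to 18.0 ± 0.21 CPM (edgeR adjusted p = 6.91e-07), and *Fabp1*, the liver fatty acid binding protein, from 28.5 ± 3.09 to 20.3 ± 3.49 CPM (edgeR adjusted p = 0.0164). Omitting C75S replicate 1 or WT replicate 3 ended the call of *Fabp1* (0.064 and 0.0888) and left 1 gene called in the list. *Ppara* was at 30.1 ± 3.05 CPM in WT and 28.8 ± 2.00 in C75S, and the classical target *Cpt1a* at 147 ± 8.76 and 149 ± 13.0 CPM. Of bile acid synthesis genes and their control, 1 of 10 was called, *Slc10a1*, the bile acid importer, which fell from 15.2 ± 0.85 to 10.6 ± 1.63 CPM (edgeR adjusted p = 0.0122). Without C75S replicate 1 or WT replicate 2 it was 0 genes. *Cyp7a1*, the rate-limiting enzyme that FGFR4 signalling represses, was at 1.80 ± 0.22 and 1.65 ± 0.17 CPM (edgeR adjusted p = 0.907).

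Of the insulin, ChREBP, SREBP-1c and LXR lipogenic genes, the programme to which *Angptl8* belongs, 2 of 20 were called, in opposite directions, with a median of -0.05. In this list, too, 15 estimates were below 0. *Scd1*, a fatty acid desaturase, rose from 1183 ± 49.5 to 1397 ± 37.1 CPM (edgeR adjusted p = 0.012). *Mlxipl*, which encodes ChREBP, a glucose-responsive activator of *Fgf21*, fell from 205 ± 7.19 to 178 ± 5.80 CPM (edgeR adjusted p = 0.0205). The call of *Mlxipl* ended in 4 of 6 leave-one-out fits, those omitting C75S replicate 2 (0.065), C75S replicate 3 (0.109), WT replicate 1 (0.071) and WT replicate 3 (0.0549). That of *Scd1* ended without WT replicate 1 (0.0609). With no filter on low counts 4 genes of the list were called. Omitting WT replicate 3, or C75S replicate 2 or 3, left 1.

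**Figure D4:**
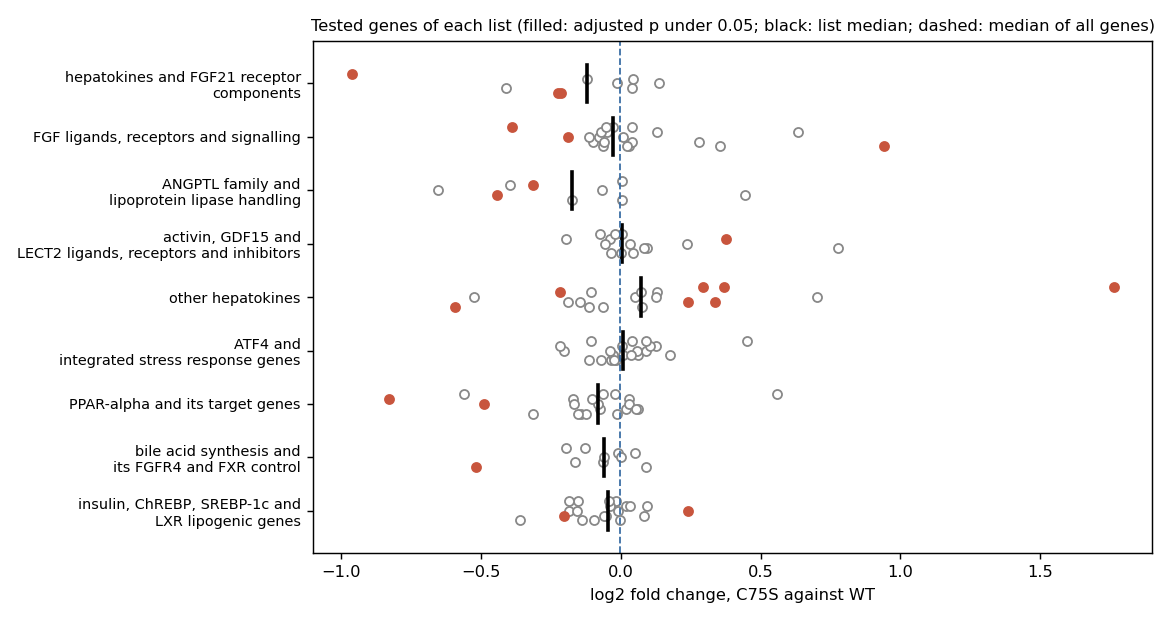
Log2 fold change of C75S against WT (x axis) of every tested gene in the 9-gene set and the 8 lists, 1 point per gene; filled points have an edgeR adjusted p-value under 0.05, black bars are list medians, and the dashed line is the median of all tested genes. List medians lie between -0.17 and 0.07, and *Igfbp2* at 1.76 is the point farthest to the right.

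The pattern of each called member was compared with 9388 named genes of at least 5 CPM by Pearson's r of log2 CPM over the 6 libraries. The points share their libraries and the difference between genotypes, so r describes likeness only. *Mlxipl* was the nearest to *Fgf21* (r = 0.998), and *Brwd3* was also close (0.992). For *Angptl4* the nearest were *Pot1a*, *Tomm40l* and *Armcx3* (0.985, 0.985 and 0.984), and for *Gdf15* they were *Aasdhppt*, *Xpr1* and *Abhd13* (0.993, 0.992 and 0.990). An r over 0.9 was reached by 138 genes for *Fgf21*, 135 for *Angptl4* and 109 for *Gdf15*. Of the genes named here for their likeness, only *Mlxipl* was called between genotypes.

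Each library held 16944723 to 21044292 counts on genes. *Mtdh* was at 197 ± 5.18 CPM in WT and 200 ± 10.5 in C75S (edgeR adjusted p = 0.909), and a gene count does not read the mutated codon, so it does not check the genotype labels. Hepatocyte markers summed to 66764 to 79712 CPM in C75S and 74925 to 82670 CPM in WT, with 12 of 12 tested and *Cyp2e1* called as higher. Most of the hepatocyte sum was *Alb*, at 67143 ± 3618 CPM in WT and 60607 ± 5471 in C75S (edgeR adjusted p = 0.347). The median over the 12 tested hepatocyte genes was 0.01 on the log2 scale, with 6 estimates above 0 and 6 below. Of 12 Kupffer cell and macrophage markers 10 were under 1 CPM in every library, and the list summed to 97.5 to 141 CPM in C75S and 104 to 135 CPM in WT (2 of 12 tested, 0 called). Nearly all of this sum was *Cd68*, at 117 ± 16.2 CPM in WT and 118 ± 21.9 in C75S. Endothelial markers summed to 69.7 to 90.5 CPM in C75S and 89.4 to 115 CPM in WT (9 of 12 tested, 0 called; the median over the tested genes was 0.34 on the log2 scale, of the opposite sign to the sums), and stellate cell markers to 59.4 to 76.2 and 74.0 to 95.5 CPM (6 of 12 tested, *Acta2* called as higher). *Flt1*, at 62.0 ± 9.38 CPM in WT and 37.0 ± 5.75 in C75S (edgeR adjusted p = 0.0656), and *Stab2*, at 26.4 ± 5.75 and 24.9 ± 4.88 CPM, made up most of the endothelial sum. Most of the stellate sum was *Reln*, at 75.2 ± 11.5 CPM in WT and 58.7 ± 8.70 in C75S (edgeR adjusted p = 0.394), and the median over the 6 tested genes was 0.04 on the log2 scale. Cholangiocyte markers were higher in every C75S library, at 311 to 385 CPM against 271 to 282 CPM (9 of 12 tested, *Krt19* called as higher, *Cftr* at 0 counts). Their part in the lower levels of *Fgf21*, *Angptl4* and *Gdf15* was not tested.

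**Figure D5:**
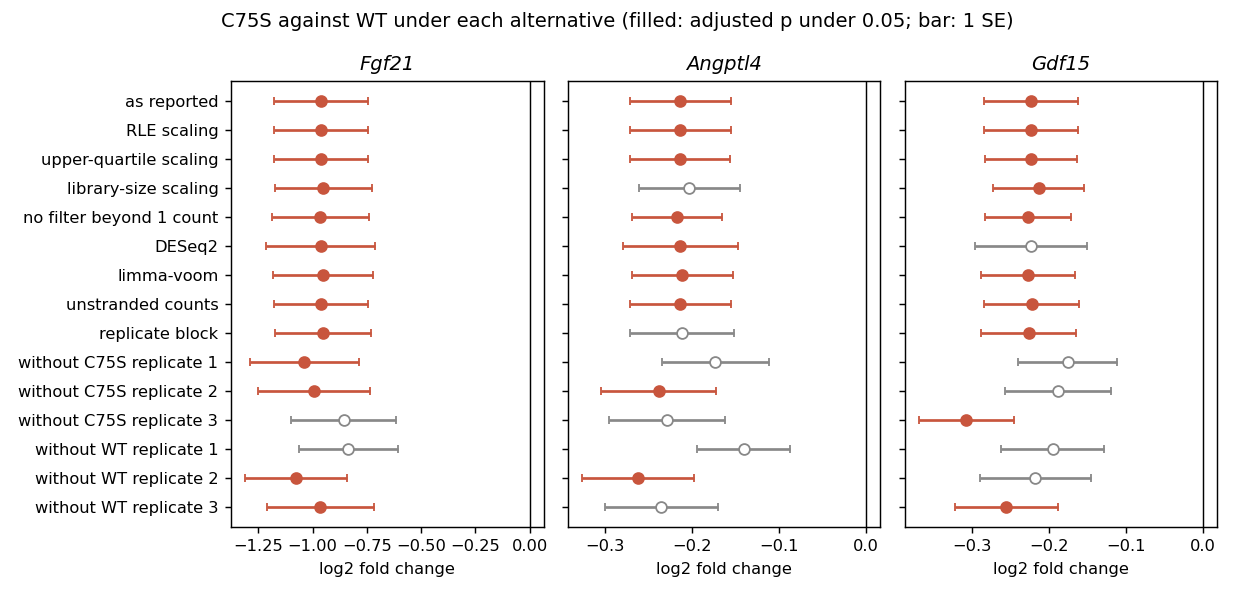
Log2 fold change of *Fgf21*, *Angptl4* and *Gdf15* (x axes, bars of 1 SE) as reported and under 14 alternatives; filled points have an adjusted p-value under 0.05. All estimates are below 0, but without WT replicate 1 none of the 3 genes is filled.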

How the data were processed

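Per the labels, TruSeq RNA libraries were read on a HiSeq3000 instrument. The authors deposited raw read counts for each Ensembl gene ID, as STAR tabulates them. Per the submitters' processing notes, Trim Galore 0.6.6, STAR 2.7.9a, edgeR 3.36.0 and the builds mm10 and GRCm38 were used. The annotation release is not given in the sources used here. The reverse-strand column held 33.3 times the counts of the forward column and was used, and the 4 summary rows were left out: unmapped reads were 4.37% to 5.81%, multimapping reads 18.0% to 18.5%, 4.99% to 5.55% of a library fell outside genes, and 0.891% to 0.926% was ambiguous. Multimapping reads were not counted to genes. With BLAST 2.17.0, no transcript of another gene matched a member at 90% identity over 100 bases. Positions and exon lengths are from GENCODE M21, which matched 55227 of 55487 rows.

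Genes were filtered with edgeR's filterByExpr (minimum count 10, minimum total 15), scaled by TMM and compared in edgeR 4.0.16 under R 4.3.3 by a robust quasi-likelihood F-test, two-sided, with genotype as the single term. The SE is the absolute log2 fold change divided by the square root of F. As alternatives, scaling was by RLE, upper quartile or library size, and the others were no filter beyond 1 count, DESeq2 1.42.0, limma-voom (limma 3.58.1), unstranded counts, a replicate block and leaving out each library. Log2 CPM values used a prior count of 2.

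The members and lists were chosen with earlier results of these data known. Named are the 9 members, up to 3 called genes per list by p-value (or the lowest p-value where none was called), and the 3 genes most like each called member, of which 1 for *Fgf21* is not reported here. *Fgfr1*, *Fgfr3*, *Dusp6*, *Spry4*, *Fgf15*, *Lpl*, *Inhba*, *Inhbc*, *Gfral*, *Acvr1c*, *Atf4*, *Ppara*, *Cpt1a* and *Cyp7a1* were added for their roles once their values had been seen, as were *Gpnmb*, *Lcn2*, *Serpina12*, *Ahsg*, *Spry1*, *Spred1*, *Spred2*, *Etv4*, *Etv5*, *Inhbb*, *Reln*, *Cd68*, *Flt1* and *Stab2*. *Alb* was also added after its values had been seen.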

Additional observations from a re-analysis of the deposited data

How the results depend on the processing

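The estimates of *Fgf21*, *Angptl4* and *Gdf15* were below 0 in all 14 alternatives, and their calls held in 12, 8 and 9 of them. When each library was left out in turn, the count of called members ranged from 0 to 2, and the log2 fold change from -1.07 to -0.83 for *Fgf21*, -0.26 to -0.14 for *Angptl4*, -0.31 to -0.18 for *Gdf15*, -0.05 to 0.21 for *Klb*, -0.04 to 0.13 for *Fgfr4* and -0.16 to 0.16 for *Lect2*, the last 3 changing sign. *Klb* was at -0.045 and -0.016 when C75S replicate 2 or 3 was omitted and at -0.018 and -0.046 when WT replicate 1 or 3 was. *Fgfr4* was at -0.044 without WT replicate 3. *Lect2* was at 0.16 without C75S replicate 3, and at 0.10 and 0.03 when WT replicate 1 or 2 was omitted. In the same fits the count of all called genes was 203 to 363 (130 to 196 higher, 73 to 170 lower) against 396 (222 higher, 174 lower), with 252 when C75S replicate 1 was omitted and 203 and 246 when WT replicate 2 or 3 was. The list counts were 1 to 3 for FGF genes, 1 to 3 for ANGPTL and lipase genes, 3 to 5 for other hepatokines, 0 to 1 for ATF4 genes, 1 to 3 for PPAR-alpha genes (1 without C75S replicate 1 or WT replicate 3), 0 to 1 for bile acid genes and 1 to 2 for lipogenic genes. Library-size scaling gave *Angptl4* at -0.20 and *Lect2* at 0.0023, and DESeq2 gave *Gdf15* at -0.22. With no filter 283 genes were lower and 290 higher, 2 ATF4 genes and 4 lipogenic genes were called, and 23278 genes were tested. With limma-voom and with unstranded counts 1 ANGPTL or lipase gene was called. The cause of these differences was not tested. The labels do not say that replicate numbers mark a shared mouse or day. The deviations of same-numbered libraries correlated at 0.02, -0.04 and 0.03, and not every library correlated best with its own number. A fit with the replicate number as a block called 480 genes and 4 lipogenic genes, and gave *Angptl4* at -0.21 with an adjusted p-value of 0.0529, above the threshold. Depth limits *Fgf21*, *Klb* and *Angptl6*, each under 110 counts per library.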
